A study of Mus musculus with 42 samples.

Results

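The comparison set 2 antibody blockades side by side in tumors that all received aPD1, an antibody against the inhibitory receptor PD-1. The 20 tumors were those of the groups aPD1 + aIL2RB (n = 11) and aPD1 + aGMCSF (n = 9), chosen by their labels out of 42 tumors in 5 groups, and the 11 tumors that received all 3 antibodies were left out of the comparison. MC38 cells, which derive from a colon carcinoma of C57BL/6 mice, were grown under the skin of female CC075/UncJ × C57BL/6J F1 mice of 8 to 12 weeks. From engraftment, aIL2RB (200 µg) or aGMCSF (100 µg) was given into the peritoneum every 3 days. Once a tumor measured 75 to 110 mm3, 200 µg of aPD1 was given, and the tumor was harvested 48 h later for bulk poly(A) RNA-seq. The other 2 groups serve as reference levels, aPD1 without a blocking antibody (n = 6) and isotype, which received control antibodies only (n = 5). The dose differed along with the target, so the effects of dose and target cannot be told apart.

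IL2RB is the beta chain shared by the receptors for IL-2 and IL-15, and NK cells and CD8 T cells depend on it for survival and expansion. Its signal runs through JAK1 and JAK3 to the transcription factor STAT5. GM-CSF (gene Csf2) is a cytokine made by activated lymphocytes that acts on monocytes, macrophages, dendritic cells and granulocytes through a receptor with its own alpha chain (Csf2ra) and the beta chain Csf2rb. Both receptors therefore share STAT5 as a messenger but sit mostly on different cells.

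Levels below are CPM, a gene's count scaled to a common library size after TMM normalization, and a fold change is the fitted log2 ratio of aPD1 + aIL2RB over aPD1 + aGMCSF, so that a negative value means a lower level under IL2RB blockade. A gene is called where edgeR's quasi-likelihood test over 16932 genes, adjusted by the Benjamini-Hochberg method, gave p under 0.05. Total counts lay between 17276984 and 23525678 in aPD1 + aIL2RB and between 16592338 and 22673085 in aPD1 + aGMCSF tumors. All tumors of the series also part into 2 sets along their replicate numbers, which the labels do not name. The lower-numbered tumors are aPD1 + aIL2RB replicates 1 to 6 and aPD1 + aGMCSF replicates 1 to 5, and the higher-numbered tumors are the others (n = 5 and 4). In the higher-numbered tumors alone only 30 genes (0.177%) were called, so a call lost there does not by itself show a smaller change. The labels do not say whether replicates came from separate experiments.

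The tests called 258 genes (1.52% of those tested), of which 106 were higher (0.626%) and 152 lower (0.898%) in aPD1 + aIL2RB. Among the genes that were lower were receptors and granzymes of NK cells and cytotoxic T cells and members of the T cell receptor complex. Among the genes that were higher were the chemokine gene Ccl5, the matrix genes Dcn and Fn1, the collagen receptor gene Mrc2, the macrophage genes F13a1 and Folr2, and 5 circadian clock genes led by Dbp. In 8 genes (0.0472%) every aPD1 + aIL2RB tumor lay above every aPD1 + aGMCSF tumor, and all 8 were called: Ccl5, Dcn, Mrc2, Fstl1, Gaa, Stx2, Dpysl3 and Pappa2. In 26 genes (0.154%) every aPD1 + aIL2RB tumor lay below, and 22 of these were called. In bulk tissue, fewer cells of a type and less RNA per cell cannot be told apart.

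**Figure D1:**
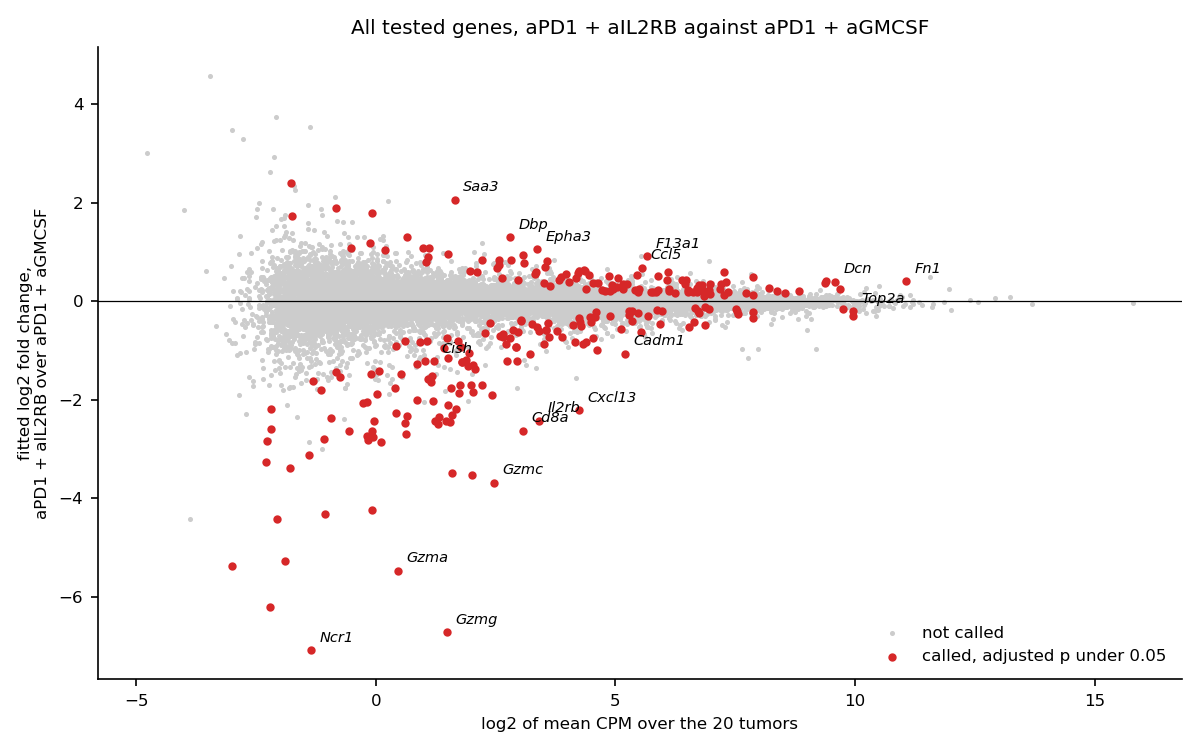
Each point is a tested gene, with the log2 of its mean CPM over the 20 tumors on the x axis and the fitted log2 fold change of aPD1 + aIL2RB over aPD1 + aGMCSF on the y axis. The 258 called genes are red. Ncr1 and Klra7, which had no count in aPD1 + aIL2RB tumors, are drawn at fitted values that depend on the fit, and Saa3 at 2.07 is the highest call that is labelled.

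Each blockade was also set against aPD1 alone in the same edgeR fit, in comparisons that share the 6 aPD1 tumors. These called 4647 genes (27.4%) for aPD1 + aIL2RB and 2289 genes (13.5%) for aPD1 + aGMCSF. Values against aPD1 are given below for single genes, side by side, to show on which side of the comparison a level departs from aPD1.

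**Figure D2:**
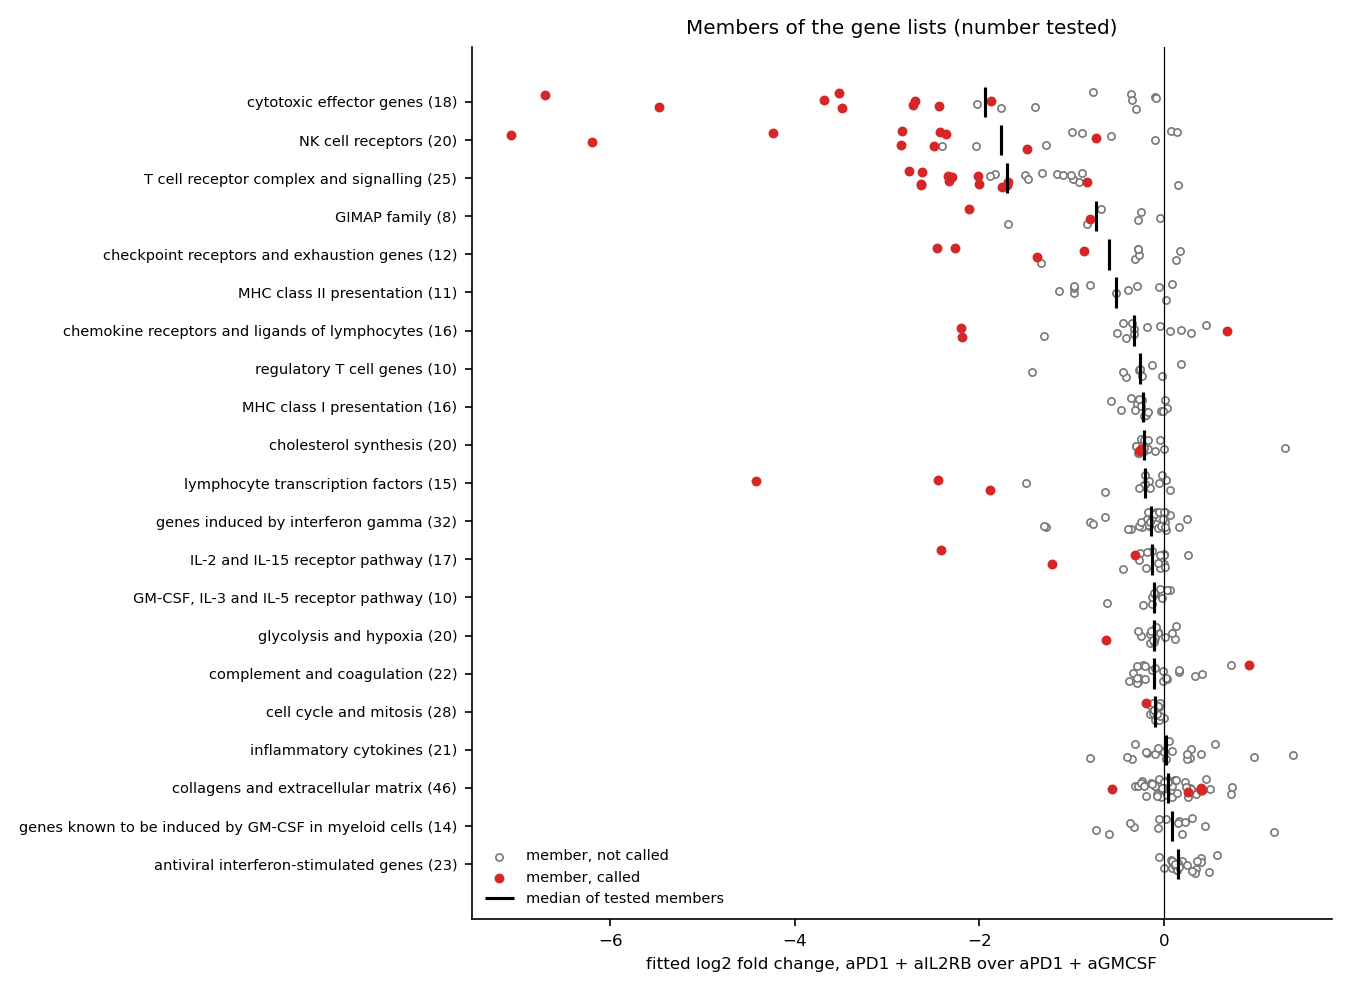
Fitted log2 fold changes (x axis) of the tested members of the pathway and family lists (y axis, with the number tested). Cell type marker lists are not drawn. Red points are called and bars are medians. The cytotoxic, NK receptor and T cell receptor lists sit furthest to the left of those drawn, with medians of -1.94, -1.76 and -1.70, while the median over all tested genes was 0.00.

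A part of the NK cell genes was at or near 0 under IL2RB blockade and detected in every tumor under GM-CSF blockade. Of 20 NK receptor genes tested, 10 were lower, none was higher and 10 were not called, and 18 of the 20 had a negative fold change. Those not called ran from Klrc2 (-2.40) and Cd226 (-2.04) to Klra4 (-0.10), Klrg1 (0.08) and Itga2 (0.14). The 20 genes summed to 44.9 to 92.3 CPM (median 51.6) in aPD1 + aIL2RB and to 76.98 to 118 CPM (median 94.3) in aPD1 + aGMCSF tumors, with overlap. Ncr1, which encodes the activating receptor NKp46 (chr7:4337724-4345164, plus strand, GRCm38), had no count in any of the 11 aPD1 + aIL2RB tumors and 0.486, 0.806 and 1.42 CPM (lowest, median and highest) in aPD1 + aGMCSF tumors. With the limit that a count of 0 allows (3 counts over the group), its level was at least 65.0-fold lower. Klra7, an inhibitory Ly49 receptor, was also at 0 in all 11 tumors and had 0.144, 0.427 and 1.11 CPM under GM-CSF blockade, at least 34.3-fold lower. Ly49 genes are near-identical copies, so reads may be credited to the wrong member of the family.

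Klrb1c, which encodes the NK marker NK1.1, ranged from 0 to 0.297 CPM (median 0.0596) against 1.10 to 2.83 (median 1.97), a change of -4.24 ± 0.47 (SE, adjusted p = 9.58e-08). Klre1, a partner chain of NK lectin receptors, ranged from 0 to 0.642 CPM against 0.85 to 4.09, a change of -2.85 ± 0.50 (adjusted p = 0.000828). Neither gene's groups overlapped. Klrd1 (CD94) and its partner Klrc1 (NKG2A) were lower by -2.49 and -2.43. The NK marker list summed to 0.806 to 3.16 CPM (median 2.49) in aPD1 + aIL2RB and to 8.11 to 14.3 CPM (median 12.0) in aPD1 + aGMCSF, without overlap. Of its 6 markers, 5 were called lower, and the remaining one, the transcription factor gene Eomes, had a fold change of -0.64 (adjusted p = 0.234). The list summed to a median of 21.9 CPM with aPD1 alone and 13.3 with isotype, so the aPD1 + aGMCSF tumors sat near the isotype level and the aPD1 + aIL2RB tumors under it.

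Granzymes, the proteases that cytotoxic lymphocytes release into target cells, were lower in part. Of 18 cytotoxic effector genes tested, 9 were called lower, 9 were not called and all 18 had a negative fold change. Gzma was at 0 in 9 of 11 aPD1 + aIL2RB tumors and reached 0.569 CPM in 1 tumor, while aPD1 + aGMCSF tumors ranged from 1.70 to 4.26 CPM (median 2.95). Its change was -5.47 ± 0.51 (adjusted p = 1.82e-09). Gzmg ranged from 0 to 0.254 CPM against 1.02 to 13.8 (median 5.05), a change of -6.71 ± 0.81 (adjusted p = 9.26e-07). Over the groups, the summed counts of Gzmg were 12 and 1055, a 117.5-fold difference in rate with an exact 95% interval from 67.0 to 228.1 that covers counting error only. Gzmc (chr14:56231441-56234656) ranged from 0.0815 to 3.33 CPM (median 0.599) against 1.85 to 21 (median 11.4), a change of -3.68 ± 0.52 (adjusted p = 2.51e-05). Here the groups did overlap, since aPD1 + aGMCSF replicate 5 had 1.85 CPM and aPD1 + aIL2RB replicate 4 had 3.33. Median levels with isotype were 4.90 CPM for Gzma, 19.2 for Gzmg and 23.2 for Gzmc, above those of both blockades.

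The neighbouring granzyme genes Gzmd, Gzme and Gzmf were lower by -3.49, -2.70 and -3.52. In the lower-numbered tumors alone none of the 3 was called, with Gzmd at -2.15 and Gzmf at -2.11. The call of Gzme was lost in 13 of 20 fits that each left out 1 tumor, with adjusted p up to 0.0725, and in DESeq2. Ctsw, a cysteine protease gene of cytotoxic cells, was lower by -2.44 ± 0.35 (adjusted p = 2.51e-05) without overlap. The better known effector genes were not called: Gzmb had a fold change of -1.76 (adjusted p = 0.1), Prf1, which encodes perforin, -2.02 (adjusted p = 0.0619), and Ifng -0.77 (adjusted p = 0.531). Nkg7, a granule membrane gene, was called at -1.87 (adjusted p = 0.0477), a call lost in 18 of 20 fits without 1 tumor and in DESeq2.

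Of 25 genes of the T cell receptor and its proximal signalling tested, 13 were called lower, 12 were not called and 24 had a negative fold change. The number called ranged from 8 without aPD1 + aGMCSF replicate 4 to 18 without aPD1 + aIL2RB replicate 3. Cd8a, the CD8 alpha chain (chr6:71373427-71379173), ranged from 0.373 to 7.63 CPM (median 2.32) against 8.51 to 28.3 (median 13.97), a change of -2.63 ± 0.50 (adjusted p = 0.00177). The highest aPD1 + aIL2RB tumor, replicate 3, lay below the lowest aPD1 + aGMCSF tumor. With aPD1 alone the level was 23.7 to 48.2 CPM and with isotype 9.17 to 18.1. Against aPD1, Cd8a changed by -3.73 (adjusted p = 1.23e-06) with IL2RB blockade and by -1.11 (adjusted p = 0.154) with GM-CSF blockade.

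Cd3e and Cd3g, signalling chains of the receptor, were lower by -1.75 ± 0.45 and -2.30 ± 0.48 without overlap. For Cd3e the call was lost in 8 of 20 fits without 1 tumor, with adjusted p up to 0.0922. The kinase genes Lck (-1.70), Zap70 (-2.0) and Txk (-2.63) and the adaptor gene Skap1 (-2.76) were called lower. The CD8 T cell marker list summed to 2.77 to 24.6 CPM (median 7.51) against 24.9 to 69.6 (median 34.2), again without overlap.

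The genes of CD4 and regulatory T cells were not called. None of 6 CD4 and regulatory T cell markers and none of 10 regulatory T cell genes tested was called. Of these, 5 of 6 and 9 of 10 had a negative fold change, with a median of -0.26 in each list. Icos stood at -1.09 ± 0.46 (adjusted p = 0.266) and Ikzf4 at -1.43 ± 0.50 (adjusted p = 0.15). Cd4 was at 0.252, 1.70 and 4.71 CPM (lowest, median and highest) in aPD1 + aIL2RB and at 0.696, 1.15 and 3.07 in aPD1 + aGMCSF tumors, a fold change of 0.15 ± 0.40. Foxp3, the lineage factor of regulatory T cells, had medians of 1.55 and 1.72 CPM and a fold change of -0.02 ± 0.34. Both standard errors are large, so differences of moderate size in these low genes were not detectable here.

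**Figure D3:**
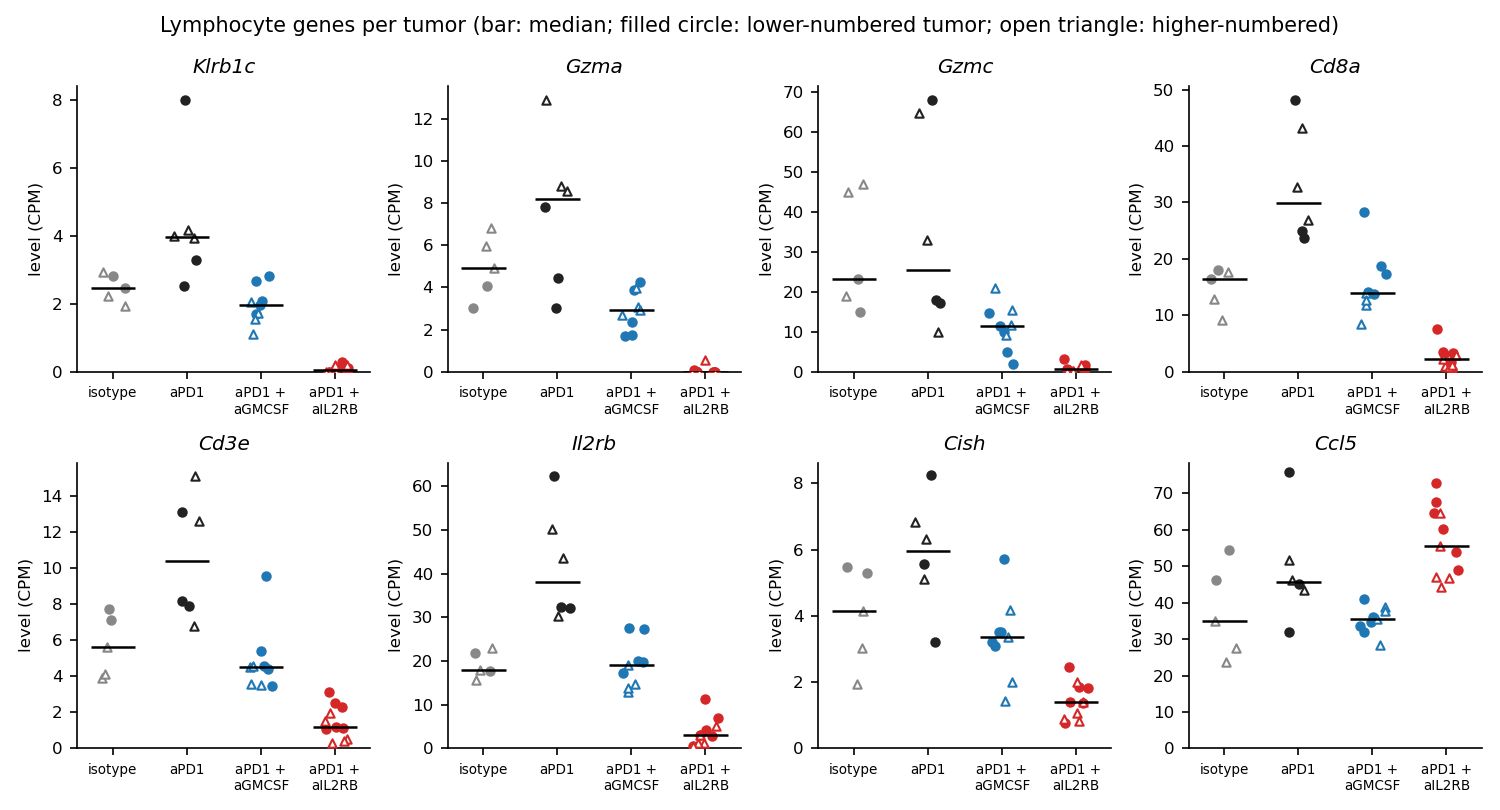
CPM (y axis) of 8 genes in each tumor of 4 groups (x axis), with the median as a bar, filled circles for lower-numbered and open triangles for higher-numbered tumors. Klrb1c, Gzma, Cd8a, Cd3e and Il2rb separate the aPD1 + aIL2RB from the aPD1 + aGMCSF tumors on the low side, and Ccl5 separates them on the high side.

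Some lymphocyte regulators and receptors were also lower, with 3 of 15 lymphocyte transcription factors, 4 of 12 checkpoint and exhaustion genes and 2 of 8 GIMAP genes called and the others not. Leaving out 1 tumor, the checkpoint count ranged from 2 (without aPD1 + aGMCSF replicate 4) to 6 (without aPD1 + aIL2RB replicate 9) and the GIMAP count from 2 to 5 (without aPD1 + aIL2RB replicate 3). Zfp683, which encodes the tissue-resident memory factor Hobit, was lower by -4.42 and had 4 counts in all aPD1 + aIL2RB tumors against 83. Ikzf3 was lower by -2.45 ± 0.46 (adjusted p = 0.00167). Tbx21, which encodes T-bet, was lower by -1.88, a call lost in 9 of 20 fits without 1 tumor. The 4 checkpoint and exhaustion genes called were Tox (-2.46), Cd96 (-2.26), Pdcd1 (-1.38) and Tnfrsf9 (-0.86). Pdcd1, the target of aPD1, had 0.809, 2.37 and 6.02 CPM against 4.30, 6.13 and 10.6, and the groups overlapped. The call of Tnfrsf9 was lost in 13 of 20 fits without 1 tumor, and that of Cd96 without aPD1 + aGMCSF replicate 4 (adjusted p = 0.0612). Gimap3, a GTPase gene of lymphocytes, was lower by -2.11 ± 0.42 without overlap, and Ms4a4b and Sh2d2a by -1.91 and -1.85, of which Ms4a4b lost its call without aPD1 + aGMCSF replicate 4 (adjusted p = 0.0506) and Sh2d2a in 4 such fits.

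Of 16 chemokine receptor and ligand genes of lymphocytes tested, 1 was called higher, 2 were called lower and 13 were not called. A negative fold change was seen in 11 and a positive one in 5. Those not called include Cxcr3 at -1.30 (adjusted p = 0.155) and Cxcl10 at 0.30 (adjusted p = 0.546). The receptor gene Cxcr6 was lower by -2.19 ± 0.46 (adjusted p = 0.0055), with a median of 0.771 CPM against 5.22. Cxcl13, a B cell attractant, was lower by -2.20 ± 0.50 (adjusted p = 0.0117), from 1.19 to 25.04 CPM (median 5.85) against 9.76 to 54.5 (median 35.9). In the higher-numbered tumors alone Cxcl13 was not called. Its aPD1 + aGMCSF values ran from 35.9 to 54.5 CPM in lower-numbered and from 9.76 to 24.1 in higher-numbered tumors. Ccl5, a chemokine that T and NK cells make along with many other cells, was higher by 0.69 ± 0.13 (adjusted p = 0.00142). Its level was 44.3, 55.5 and 72.8 CPM in aPD1 + aIL2RB and 28.5, 35.5 and 41.1 in aPD1 + aGMCSF tumors, with no overlap, while aPD1 tumors ranged from 31.96 to 75.9. Against aPD1, Ccl5 changed by 0.22 (adjusted p = 0.277) with IL2RB blockade and by -0.47 (adjusted p = 0.0254) with GM-CSF blockade.

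Of the receptor chains of both cytokines, the target of aIL2RB was the only one called. Il2rb (chr15:78479256-78495271, minus strand) had 0.479, 3.08 and 11.3 CPM in aPD1 + aIL2RB and 13.01, 19.1 and 27.5 in aPD1 + aGMCSF tumors, a change of -2.42 ± 0.44 (adjusted p = 0.00133) without overlap. Of the other chains, Il2ra had a fold change of -0.26 ± 0.32, Il2rg -0.44 ± 0.19 (adjusted p = 0.266) and Il15ra 0.00 ± 0.08, and Il15, a ligand, -0.04 ± 0.14. The GM-CSF receptor genes had fold changes of -0.13 ± 0.15 for Csf2ra, -0.13 ± 0.17 for Csf2rb and -0.10 ± 0.23 for Csf2rb2. No value of either of the last pair of near-identical genes is a whole number, so reads were divided. Which genes or alleles shared them was not examined. None of 10 tested genes of the GM-CSF, IL-3 and IL-5 receptor pathway and none of 14 tested genes known to be induced by GM-CSF in myeloid cells was called. The receptor pathway list summed to medians of 242 CPM in aPD1 + aIL2RB and 246 in aPD1 + aGMCSF, against 374 with aPD1 and 250 with isotype. For the list of genes induced by GM-CSF these medians were 159 and 170 CPM, against 352 and 240. The 2 blockades were thus alike in these sums, and both lay below aPD1. Csf2 itself had 10 and 9 counts over the groups, too few to be tested.

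Cish, a feedback inhibitor that STAT5 induces, was lower by -1.21 ± 0.24 (adjusted p = 0.00379), with 0.771, 1.38 and 2.46 CPM against 1.44, 3.37 and 5.73. Of the 9 aPD1 + aGMCSF tumors, 7 lay above all aPD1 + aIL2RB tumors. Against aPD1 alone Cish changed by -2.03 (adjusted p = 3.62e-07) with IL2RB blockade and by -0.81 (adjusted p = 0.0378) with GM-CSF blockade. Bcl2, a survival gene, was lower by -0.31 ± 0.07 (adjusted p = 0.0174), which was lost without aPD1 + aGMCSF replicate 4 (adjusted p = 0.0518). The other members of the list of 17 tested IL-2 and IL-15 receptor pathway genes, among them Stat5a (0.00), Jak3 (-0.13), Socs1 (0.01), Socs2 (0.26) and Socs3 (-0.19), were not called.

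The promoter of Cish is shown because it carries the letters that STAT factors are known to bind, TTCNNNGAA, which read the same way on both strands. The window runs from 250 bases before to 50 bases after the start site in RefSeq (GRCm38.p6, chr9:107296409-107296708, plus strand), with matches in capitals, the first at base 1 and the second at base 12 after the start site.
Cish: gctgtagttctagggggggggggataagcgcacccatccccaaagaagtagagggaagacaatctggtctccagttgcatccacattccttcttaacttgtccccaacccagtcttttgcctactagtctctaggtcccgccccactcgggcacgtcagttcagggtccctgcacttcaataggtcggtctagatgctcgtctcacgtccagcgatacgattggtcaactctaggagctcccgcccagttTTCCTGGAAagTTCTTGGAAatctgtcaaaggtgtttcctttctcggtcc
Of 32851 promoter windows, 8.30% hold this motif. It was found in 14 of the 105 lower genes that have a window (13.3%), in 8 of 83 higher genes (9.64%) and in 961 of 11465 tested genes (8.38%). These are descriptions of letters in short windows, and no binding was measured.

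Beyond lymphocytes, some genes of myeloid cells were lower. Treml4, Cd300e and Spn, which mark non-classical monocytes among other cells, were lower by -1.23 ± 0.21, -1.70 ± 0.40 and -0.98 ± 0.21. Spn, which T cells also express, did not overlap, with 11.6 to 25.1 CPM against 25.3 to 43.6. The remaining 7 of 10 non-classical monocyte genes, a list written after the values were seen, were not called. These were Itgal (-0.65, adjusted p = 0.0735), Adgre4 (-0.6), Eno3 (-0.38), Cx3cr1 (-0.26), Ace (-0.18), Nr4a1 (-0.14) and Fabp4 (0.04). A negative fold change was seen in 9 of the 10 (median -0.49). The list summed to 193 to 276 CPM in aPD1 + aIL2RB and to 271 to 341 CPM in aPD1 + aGMCSF, with overlap. Siglece and Lilra5, inhibitory and activating receptors of myeloid cells, were lower by -1.06 ± 0.16 and -1.31 ± 0.26. Xcr1, the chemokine receptor that defines cDC1, was lower by -1.57 ± 0.39 (adjusted p = 0.0246), which was lost without aPD1 + aGMCSF replicate 1 or 2, with adjusted p up to 0.0729, and with the replicate number as a block. The other 5 cDC1 markers were not called, among them Batf3 at -1.06 ± 0.41 (adjusted p = 0.214). Of the 6 cDC1 markers, 4 had a negative and 2 a positive fold change, and the list summed to medians of 104 and 105 CPM. Cadm1, an adhesion gene of cDC1 and of many other cells, was lower by -1.06 ± 0.21 without overlap. Lpl, a lipase gene of the Spp1 macrophage list, was lower by -0.87 ± 0.20. Ighm, the heavy chain of IgM, was lower by -0.82 ± 0.14 (adjusted p = 0.000784), the only one of 8 tested B and plasma cell markers to be called. In the higher-numbered tumors alone (n = 5 and 4), Treml4, Cd300e, Spn, Siglece, Lilra5, Xcr1, Cadm1, Lpl and Ighm were not called.

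Some macrophage genes were higher, 3 of 10 in a list of tissue macrophage genes written after the values were seen. Without 1 tumor the count ranged from 2 to 5, the latter without aPD1 + aIL2RB replicate 11. F13a1, which encodes a coagulation factor chain that macrophages make, was at 39.7, 60.3 and 85.0 CPM against 27.2, 33.6 and 44.0, a change of 0.92 ± 0.20 (adjusted p = 0.00757). Folr2, a folate receptor of tissue macrophages, changed by 0.85 ± 0.19 (adjusted p = 0.0111), and Pf4 by 0.56 ± 0.14 (adjusted p = 0.0277), the latter lost in 4 of 20 fits without 1 tumor. The other 7 were not called, with Cd163 at 0.95 (adjusted p = 0.054), Mrc1 at 0.37 (adjusted p = 0.0746) and Timd4 at -0.61 (adjusted p = 0.588). Against aPD1, Folr2 changed by -0.09 (adjusted p = 0.801) with IL2RB blockade and by -0.93 (adjusted p = 0.00306) with GM-CSF blockade, and Mrc1 by -0.12 and -0.49 (adjusted p = 0.508 and 0.00724). F13a1 was called against aPD1 in neither group, at 0.53 (adjusted p = 0.0742) and -0.39 (adjusted p = 0.27). These comparisons share the aPD1 tumors. None of 12 general monocyte and macrophage markers was called, and their sums had medians of 2672 and 2635 CPM.

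The chemokine Cxcl9 and the secreted protein Spp1 mark opposite macrophage states, and the study used their ratio as a readout. Neither gene was called, with Cxcl9 at -0.51 ± 0.38 and Spp1 at 0.32 ± 0.19. The Cxcl9/Spp1 ratio of the counts within a tumor was 0.150, 0.491 and 0.782 in aPD1 + aIL2RB and 0.414, 1.01 and 2.08 in aPD1 + aGMCSF tumors, a mean difference of -1.01 on the log2 scale (exact two-sided Wilcoxon test, p = 0.0125). The groups overlapped. Tumors of aPD1 alone ranged from 1.51 to 3.03 and isotype tumors from 0.582 to 1.75. Within the lower-numbered tumors the difference was -1.39 (exact p = 0.0173) and within the higher-numbered tumors -0.53 (exact p = 0.19).

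Interferon and antigen presentation genes were not called. None of 32 genes induced by interferon gamma, 23 antiviral interferon-stimulated genes, 11 MHC class II and 16 MHC class I presentation genes passed the test. Their median fold changes were -0.14, 0.15, -0.52 and -0.22. In the same order, 24, 2, 9 and 14 of them had a negative fold change. Fits without 1 tumor called 0 to 2 genes induced by interferon gamma and 0 to 1 MHC class I genes lower. They called none of the antiviral and MHC class II genes. Summed MHC class II levels had medians of 1374 and 2382 CPM with overlapping ranges (753 to 2147 and 1491 to 3360). The leukocyte gene Ptprc, which encodes CD45, had a fold change of -0.47 ± 0.18 (adjusted p = 0.211), with 94.8 to 187 CPM against 142 to 229. All 5 general leukocyte markers, Ptprc among them, had a negative fold change (median -0.29), and none was called. They summed to 611 to 1017 CPM against 819 to 1068, with overlap.

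A few matrix genes were higher under IL2RB blockade. Dcn, which encodes the small proteoglycan decorin (chr10:97479609-97518143), was at 724, 877 and 1010 CPM against 617, 643 and 705, with no overlap and a change of 0.40 ± 0.07 (adjusted p = 0.000828). Mrc2, an endocytic collagen receptor, ranged from 44.4 to 59.1 CPM against 29.6 to 44.2, also without overlap (0.53 ± 0.07, adjusted p = 1.97e-05). Fn1, which encodes fibronectin, was higher by 0.41 ± 0.09 (adjusted p = 0.010) and the gelatinase gene Mmp2 by 0.40 ± 0.09 (adjusted p = 0.016). Of 46 matrix genes, 4 were higher (Dcn, Fn1, Mmp2 and Timp2) and 1 was lower, Col14a1 at -0.56, a call lost in 9 of 20 fits without 1 tumor. Such fits called 3 to 7 matrix genes higher and 0 to 2 lower, the most of both without aPD1 + aIL2RB replicate 9. The main fibrillar collagens were not called, with Col1a1 at -0.09 ± 0.20 and Col3a1 at 0.50 ± 0.14 (adjusted p = 0.0617). Summed matrix genes had medians of 18387 and 14859 CPM with overlapping ranges (14058 to 20445 and 13511 to 17308). Summed fibroblast markers had medians of 5877 and 4327 CPM, also with overlap (4686 to 6538 and 3872 to 5402). In the fibroblast marker list Dcn and Pdgfra (0.49 ± 0.12) were higher and Thy1, which T cells also express, was lower at -0.83. The calls of Pdgfra and Thy1 were lost in 5 and 4 of 20 fits without 1 tumor, which called 1 to 4 fibroblast markers higher. Against aPD1, Dcn changed by 0.93 (adjusted p = 9.6e-11) with IL2RB blockade and by 0.53 (adjusted p = 8.38e-05) with GM-CSF blockade, so both groups lay above aPD1.

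The largest increases among called genes with a mean of at least 1 on the log2 CPM scale were in Saa3, Dbp and Epha3. Saa3, an acute-phase serum amyloid gene of stromal cells and macrophages, was at 0.554, 5.43 and 10.5 CPM against 0.601, 0.860 and 1.87 (2.07 ± 0.51, adjusted p = 0.0246). The call was lost without aPD1 + aGMCSF replicate 1 (adjusted p = 0.0547). Its aPD1 + aIL2RB values were widely spread, as replicate 8 lay below all aPD1 + aGMCSF tumors while 8 of 11 lay above them all. With aPD1 alone Saa3 ranged from 1.56 to 6.11 CPM. Epha3, an ephrin receptor gene, was at 9.48, 12.8 and 18.5 CPM against 3.65, 5.65 and 14.6 (1.06 ± 0.19, adjusted p = 0.00103), and only aPD1 + aGMCSF replicate 5 reached into the upper range. Epha3 lay above aPD1 in both groups, by 2.02 and 0.96. Other genes among the 12 called genes of largest increase were Serpina1d (0.96), Lrrc17 (0.94), F13a1, Ephb3 (0.89), Ncam2 (0.85), Folr2, Ptchd1 (0.84) and Fam198b (0.82). Calls of Ncam2 and Ptchd1 were lost in 14 and 12 of 20 fits without 1 tumor. In the higher-numbered tumors alone (n = 5 and 4) none of these 12 was called. Serpina1d stood at 0.45 there against 1.36 in the lower-numbered tumors, and Ncam2 at 0.34 against 1.13. The fold changes of Saa3 and Epha3 there were near those over all tumors. Serpina1d belongs to a family of near-identical genes, and 75% of its values are not whole, so reads were divided. Which genes or alleles shared them was not examined.

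**Figure D4:**
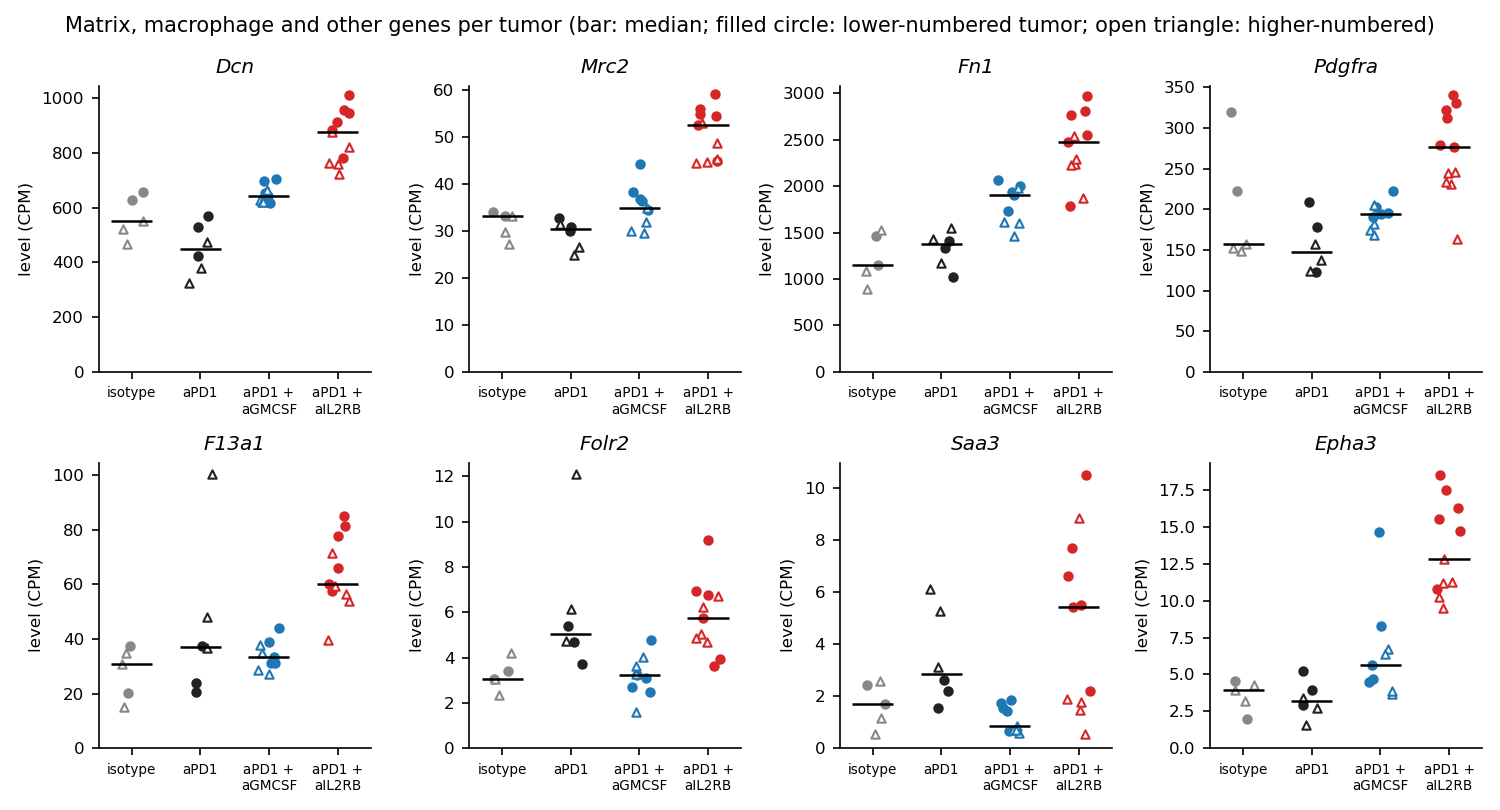
CPM (y axis) of 8 genes in each tumor of 4 groups (x axis), drawn as in the plot of lymphocyte genes. Dcn and Mrc2 do not overlap between aPD1 + aIL2RB and aPD1 + aGMCSF tumors, and Saa3 spreads from 0.554 to 10.5 CPM within aPD1 + aIL2RB.

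Several circadian clock genes were higher under IL2RB blockade over all tumors. None of these was called in the higher-numbered tumors alone (n = 5 and 4), where few genes were called at all. The clock is a feedback loop in which CLOCK and ARNTL (BMAL1) drive the genes of their own repressors and of output factors such as DBP and TEF. The list of 19 clock genes was written after the values were seen. Of 17 tested, 5 were called higher and none lower. Dbp (chr7:45705088-45710203) was at 4.93, 9.50 and 13.6 CPM against 2.30, 4.02 and 5.87 (1.31 ± 0.22, adjusted p = 0.000644), and 10 of 11 aPD1 + aIL2RB tumors lay above every aPD1 + aGMCSF tumor. The repressor genes Nr1d1 and Nr1d2 were higher by 0.52 ± 0.10 (adjusted p = 0.0013) and 0.44 ± 0.07 (adjusted p = 0.000134), the period gene Per3 by 0.64 ± 0.14 (adjusted p = 0.0111) and Tef by 0.44 ± 0.10 (adjusted p = 0.00999). Per1 and Per2 had fold changes of 0.50 and 0.51 (adjusted p = 0.134 and 0.115). Of the loop's activators, Arntl stood at -0.12 ± 0.10 and Clock at -0.02 ± 0.06, and neither was called.

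The reference levels of Dbp lay near those under GM-CSF blockade. Its medians were 4.06 CPM with aPD1 and 4.89 with isotype, near the 4.02 of aPD1 + aGMCSF, and against aPD1 Dbp changed by 1.2 (adjusted p = 0.000421) with IL2RB and by -0.11 (adjusted p = 0.841) with GM-CSF blockade. Klf11, a transcription factor gene outside the list that was singled out after its values were seen, was higher by 0.62 ± 0.10 (adjusted p = 0.000352). The time of day of harvest is not given in the sources used here, and its part in these values was not tested. Reads were divided in 95% of the values of Dbp and 90% of those of Nr1d1.

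The promoters of Per3 and Tef are shown because they hold motifs of the clock, TTATGTAA (the D-box that DBP and TEF bind, searched on both strands) in Per3 and CACGTG (the E-box that CLOCK and ARNTL bind, which reads the same on both strands) in Tef, in capitals. The windows are those of RefSeq (GRCm38.p6), chr4:151044616-151044915 on the minus strand for Per3 and chr15:81802423-81802722 on the plus strand for Tef.
Per3: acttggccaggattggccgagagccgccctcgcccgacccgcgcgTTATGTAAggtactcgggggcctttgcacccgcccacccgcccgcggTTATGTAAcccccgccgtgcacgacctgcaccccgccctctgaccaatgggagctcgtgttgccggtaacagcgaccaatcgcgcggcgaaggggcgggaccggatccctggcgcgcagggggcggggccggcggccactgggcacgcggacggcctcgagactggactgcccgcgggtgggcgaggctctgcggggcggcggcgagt
Tef: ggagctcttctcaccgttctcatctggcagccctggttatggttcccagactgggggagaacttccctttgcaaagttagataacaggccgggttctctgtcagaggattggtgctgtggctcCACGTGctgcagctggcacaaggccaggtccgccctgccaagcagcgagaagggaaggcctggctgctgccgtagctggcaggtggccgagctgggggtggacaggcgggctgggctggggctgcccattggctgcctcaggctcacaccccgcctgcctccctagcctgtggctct
The D-box letters occur in 0.938% of all windows and the E-box letters in 7.15%. Of 83 higher genes with a window, 1 (Per3) held the former and 7 the latter (8.43%), against 0.741% and 11.2% of the tested genes. Per3 holds the D-box letters at 205 and at 158 bases before its start site, both on the strand shown, and Tef holds the E-box letters at 127 bases before. The windows of Dbp, Nr1d1 and Nr1d2 held neither motif.

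**Figure D5:**
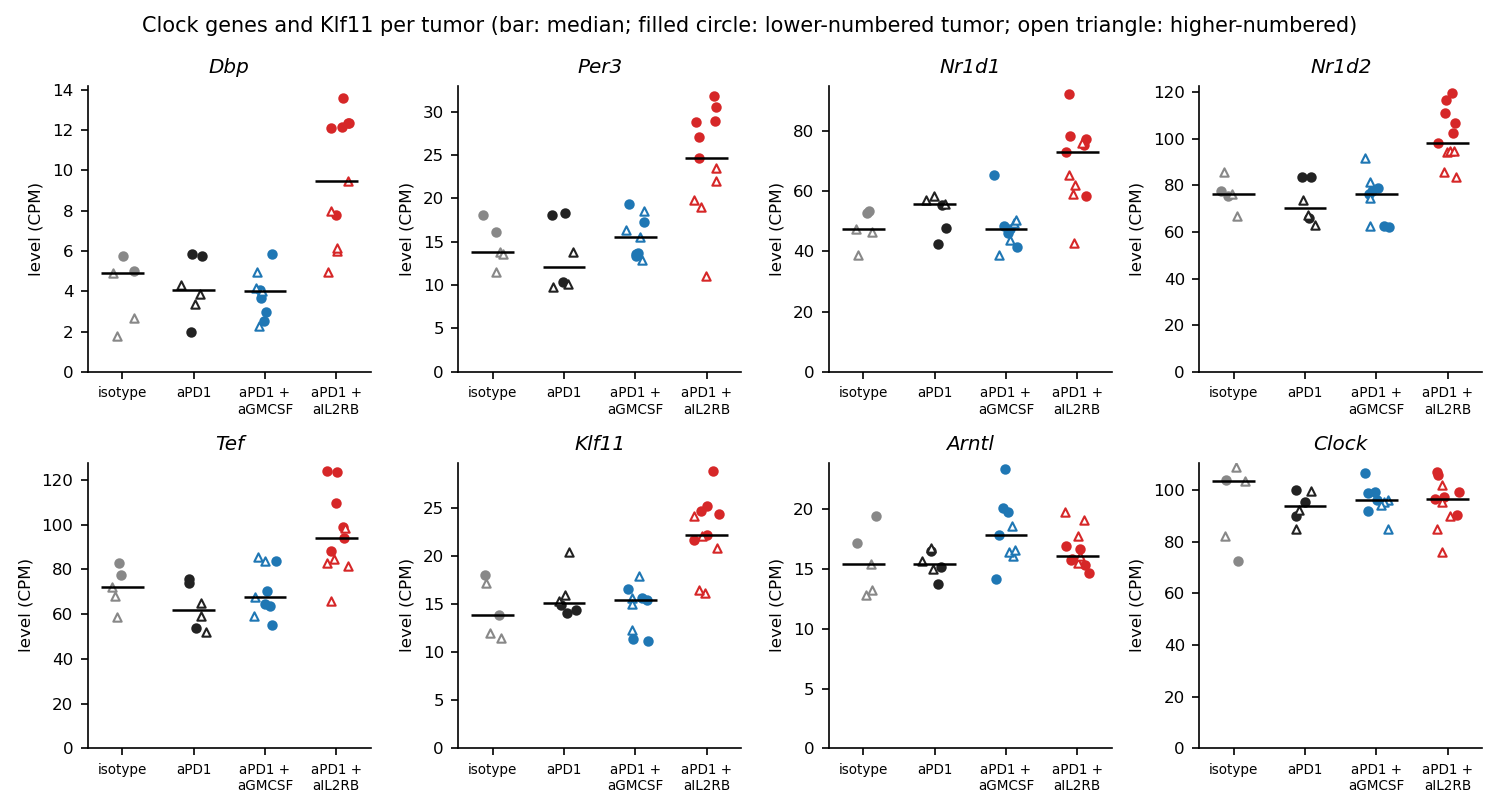
CPM (y axis) of 7 clock genes and Klf11 in each tumor of 4 groups (x axis), drawn as in the plot of lymphocyte genes. The 5 called clock genes and Klf11 stand higher in aPD1 + aIL2RB tumors over all, while Arntl and Clock do not.

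Few genes of proliferation and metabolism were called, with 1 of 28 cell cycle genes, 2 of 20 cholesterol genes and 1 of 20 glycolysis and hypoxia genes. In fits without 1 tumor these counts, all of lower genes, ranged from 1 to 2, from 1 to 3 and from 1 to 2. Top2a, the mitotic topoisomerase, was lower by -0.19 ± 0.04 (adjusted p = 0.00496), with 796 to 1008 CPM against 1032 to 1109 and no overlap. Of the 28 cell cycle genes, 27 had a negative fold change (median -0.09). With library size as the only scaling Top2a was not called. The cholesterol genes called include Sc5d, a late enzyme of cholesterol synthesis, at -0.27, which lost its call in 9 of 20 fits without 1 tumor. Egln3, a hypoxia-induced oxygen sensor, was lower by -0.63 ± 0.14 (adjusted p = 0.0117), at -0.89 in the lower-numbered and -0.21 (adjusted p = 0.872, not called) in the higher-numbered tumors. It stood 0.63 above aPD1 in aPD1 + aGMCSF (adjusted p = 0.0103) and at 0.00 in aPD1 + aIL2RB.

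None of the markers of endothelial cells, adipocytes, skeletal muscle, skin keratinocytes, erythroid cells, neutrophils, eosinophils and mast cells or of MC38 cells was called. Summed muscle markers reached 118 CPM in aPD1 + aIL2RB and 249 CPM in aPD1 + aGMCSF. Their medians were 41.4 and 26.7 and their means 45.3 and 87.3. A negative fold change was seen in 9 of 10 muscle markers tested (median -0.89) and 6 of 8 adipocyte markers. All tested markers of keratinocytes (6, median 1.38), endothelial cells (12, 0.17), eosinophils and mast cells (4, 0.97) and erythroid cells (4, 0.39) had a positive one. So did 5 of 6 neutrophil and 4 of 6 MC38 markers. The share of counts from 5 rRNA genes had medians of 6.63% and 6.55%.

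Within the 2 sets of replicate numbers, the contrast called 531 genes (3.14%) in the lower-numbered tumors, of which 205 were among the 258, and 30 genes (0.177%) in the higher-numbered tumors, of which 27 were among the 258. Of 86 called genes that were examined singly, 11 lost their call in the lower-numbered and 63 in the higher-numbered tumors. Cd8a, at -2.52 and -2.82, and Il2rb, at -2.24 and -2.78, were called in both sets, as was Ncr1. In the higher-numbered tumors Cd3e (-2.1), Lck (-1.8), Skap1 (-2.71), Pdcd1 (-1.58) and Cish (-1.15) were not called, nor were Trac, Tbx21, Zfp683, Cd96, Ms4a4b and Nkg7. Of the genes that were higher, Mrc2 was called in both, at 0.50 and 0.58, while Ccl5 (0.56), Dcn (0.32), Fn1 (0.42), Mmp2 (0.29), F13a1 (0.81), Folr2 (0.81), Saa3 (2.01) and Epha3 (1.09) were not called in the higher-numbered tumors, nor were Pf4 and Fstl1. The clock genes Dbp, Nr1d1, Nr1d2, Per3 and Tef and Klf11 were not called there either, with Dbp at 1.61 in the lower-numbered and 0.84 in the higher-numbered tumors (adjusted p = 0.421) and Nr1d2 at 0.61 and 0.23. Gzmd and Gzmf had the larger changes in the higher-numbered tumors, at -6.17 and -6.10. In the test of the difference between sets itself, edgeR called none of 16932 genes, with a lowest adjusted p of 0.314 and 960 genes at an unadjusted p under 0.05 (822 with library size only), so that these differences between the sets were not shown to be larger than the spread.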

How the data were processed

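Poly(A) RNA of 42 tumors was sequenced as 100 bp paired ends. Per the labels and the study's methods, the authors aligned reads with bowtie 1.2.3 to transcriptomes of the founder strains (GRCm38, GENCODE vM23) and used gbrs to obtain an expected count for each gene. The deposited expected counts are estimates, and 15.2% are not whole numbers, since reads shared by similar genes or alleles are divided among them. Expected counts were rounded here. Of 26811 genes, 16932 passed edgeR's filterByExpr.

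edgeR 4.0.16 (R 4.3.3, TMM scaling, quasi-likelihood test, Benjamini-Hochberg adjustment) was fitted to all 42 tumors in 5 groups, so that they share 1 estimate of the spread, whereas the study used DESeq2, run here as an alternative (1.42.0). The script was tested on simulated counts. Genes were named by rule: the 12 called genes of largest increase and of largest decrease with a mean log2 CPM of at least 1, up to 4 called genes per list, and receptor genes. Other genes, among them those without overlap, the further granzymes, Siglece, Lilra5 and Cadm1, were named after their values were seen. Members and lists were chosen with earlier results of these data known, and 3 lists (clock, non-classical monocyte and tissue macrophage genes) were added after the values were seen. No p-value was computed for a list. The Cxcl9/Spp1 ratio was compared by an exact two-sided Wilcoxon test. Symbols and coordinates come from a GENCODE M21 annotation of GRCm38, and promoter windows from RefSeq. The labels give each tumor as a separate biological replicate. Within aPD1 + aIL2RB and within aPD1 + aGMCSF, no pair of tumors differed by as little as sampling noise. Intervals and limits at 0 cover counting error only. The authors' comparisons were not used. Some genes that the naming rule selects are not reported here.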

Additional observations from a re-analysis of the deposited data

Results flagged for a closer look

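In 4 of 71 sets of values tested, 1 aPD1 + aGMCSF tumor (n = 9) lay apart from the others by a gap whose share of the whole range exceeded the 95% critical value of Dixon's test, 0.493. Chance gives about 1 in 20. Serpina1d was lowest in replicate 1, with a gap of 0.517 of the range, and Ephb3 was lowest in replicate 5, with 0.495. Cd3e and Pdcd1 were both highest in replicate 4, with gaps of 0.558 and 0.502, and the level of Cd3e there was 9.59 CPM.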

How the results depend on the processing

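The 258 calls (106 higher, 152 lower) became 253 with DESeq2's size factors in edgeR, 195 with library size only and 217 with a minimum of 5 counts in total. Larger moves were 167 with at least 10 counts in every tumor (79 lower, 12497 genes tested), 395 with DESeq2 (167 higher), 476 with only the 20 tumors (185 higher, 291 lower), 404 with the replicate set as a term (189 higher), 531 in the lower-numbered (244 higher, 287 lower) and 30 in the higher-numbered tumors (5 higher, 25 lower). Of the calls, 41.1% were higher, against 52.7% with at least 10 counts in every tumor and 16.7% in the higher-numbered tumors. Fits without 1 tumor called between 162 (without aPD1 + aGMCSF replicate 1) and 469 genes (without aPD1 + aIL2RB replicate 9), 58 to 227 of them higher and 99 to 242 lower, and 170 without aPD1 + aIL2RB replicate 6. The cause was not tested. Genes without overlap numbered 34, and 32 with library size only. Same-numbered tumors of both groups correlated at -0.05 to 0.18, with 3 of 9 pairs over 0.1 and 2 of 9 matching their own number best, so the numbers were not taken to pair single tumors, although they follow the 2 sets, and with a replicate block 341 genes were called. The Cxcl9/Spp1 ratio differed by -1.14 to -0.85 in fits without 1 tumor, by -0.98 with a replicate block (exact sign-flip test, p = 0.0273) and by -0.53 in the higher-numbered tumors, where the exact test missed 0.05. Of 86 called genes named, library size only lost Top2a, Sc5d and Anln, DESeq2 Nkg7 and Gzme, a minimum of 5 counts Ncam2 and Nkg7, the block Xcr1, the lower-numbered tumors 11 and the higher-numbered tumors 63. Genes under about 1 CPM rest on few counts, which limits the precision of their fold changes.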
